A study of Mus musculus with 8 samples.

Results

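The heat shock proteins and their DnaJ cochaperones were described by the H3K27ac peaks at and round their genes in mouse muscle stem cells (satellite cells). The genes were chosen by symbol alone: each protein-coding gene of the mm10 assembly whose symbol begins with Hsp90, Hspa, Hspb, Hspd, Hspe, Hsph, Dnaja, Dnajb or Dnajc, with Bag3 added. This gave 75 of 21887 genes, and no measured value entered the choice. Hspbp1 and Hspbap1 were matched by symbol only, since they encode binding partners of heat shock proteins and not chaperones. All mice were C57BL/6 and the tissue was skeletal muscle. FISC, the freshly isolated satellite cells, were from muscle with no treatment. Activated satellite cells (ASC) were from muscle injured with BaCl2 (barium chloride) and were isolated 2.5 days after the injury. Each condition had 2 H3K27ac libraries and an input library for each, and the inputs were not used here. Age, the sort that purified the cells, and whether replicates were separate or pooled animals are not given in the labels, so the p-values rest on the spread between these libraries, and that spread may be technical only. Injury, activation and the time after injury go together in ASC and cannot be told apart.

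Chaperones bind unfolded or unstable proteins and help them to fold, to assemble or to be handed on for degradation. HSP70 proteins do this in cycles of ATP binding and hydrolysis: DnaJ proteins (also called HSP40 or J-domain proteins) deliver the client and stimulate hydrolysis, and nucleotide exchange factors such as the HSP110 proteins and BAG3 release it, after which HSP90 can take over clients such as kinases and steroid receptors. Many of these genes are induced through heat shock factor HSF1, which binds heat shock elements made of alternating GAA and TTC units, and those of the endoplasmic reticulum (ER) are induced by unfolded protein in the ER. In muscle, small heat shock proteins, αB-crystallin and BAG3 protect the contractile apparatus, and HSP90 with UNC45 folds myosin.

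What was compared is the length under peaks, not the height of the signal. End breadth is the kb under peaks within 2 kb of either end of a gene, and 50 kb breadth is the kb under peaks within 50 kb of either end, each base counted once. Both were fitted with limma over all covered genes, and a gene rose or fell in ASC where the Benjamini-Hochberg adjusted p was under 0.05. Values are given in the order ASC replicate 1, ASC replicate 2, FISC replicate 1, FISC replicate 2. In these bulk samples, a mark present in more of the cells and a mark spread further in each cell cannot be told apart.

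The lists held 50154 and 54700 peaks in ASC and 45014 and 43092 in FISC, and they covered 49.2 and 57.7 Mb in ASC against 34.4 and 33.7 Mb in FISC. The longer ASC lists move the whole genome: the median gene differed by +0.304 kb in end breadth, and by −0.345 kb once each library was divided by its total covered length and multiplied by the mean total of the 4 libraries. Counts are therefore given as deposited and after scaling, and also with each list reduced to its strongest peaks at an equal covered length of 33.7 Mb. That reduction kept 18090 and 14488 peaks in ASC against 42792 and 43092 in FISC, so weaker ASC peaks drop out by construction, and a fall at equal length may be such a loss. The ends of all 8 defining satellite cell markers, Pax7, Myf5 and Cdh15 among them, were covered in all 4 libraries. Of 8 myeloid markers, Ptprc, Lyz2, Adgre1 and Itgam were at 0 at their ends in every library. Cd68, Cd14 and Spi1 were covered in all 4, and of these 3 Cd14 alone rose (limma adjusted p = 0.00917). The summed end breadth of the 8 was 5.08 and 6.88 kb in ASC against 3.19 and 3.06 kb in FISC. Of 5 smooth muscle and pericyte markers tested as deposited, Notch3 rose, and Tagln, Pdgfrb and Cspg4 fell. Of 4 fibro-adipogenic and fibroblast markers tested, Ly6a rose and Dpt fell. Among all genes 26.5% rose and 3.61% fell. The part of other cell types in the results was not tested.

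Ends of the heat shock and DnaJ genes were acetylated in both conditions. In ASC 67 and 67 of the 75 had covered bases within 2 kb of an end (89.3% in each library), and in FISC 65 and 65 (86.7%), against between 55.8 and 58.4% of all genes. Of the 67 genes with covered ends in at least 2 libraries, 21 rose in ASC (31.3%, where 26.5% of all tested genes rose) and 1 fell (1.49%, where 3.61% of all genes fell). These shares lie near those of all genes. Their median difference was +0.379 kb as deposited, and it turned to −0.405 kb after scaling, where 3 of them rose (all genes 9.19%) and 22 fell (all genes 36.6%). At equal covered length 13 of 65 rose (20%, where 15.8% of all genes rose) and 6 fell (9.23%, where 13.1% of all genes fell). All 13 were among the 21. Of the 6 falls, 4 (Dnajc28, Hspa12b, Hspa1a and Hspb8) had no ASC peak left after the reduction. Dnajc17 and Dnajc9 alone rose as deposited, after scaling and at equal length. The ASC libraries were both higher than either FISC library at 46 of the 67 (68.7%, all genes 62.1%) and both lower at 5 (7.46%, all genes 11%). Without FISC replicate 1 or without FISC replicate 2, no gene of the whole table passed the adjusted threshold in limma, so these fits say nothing on single genes. The median difference of the heat shock and DnaJ genes was then +0.461 and +0.3565 kb, and at an unadjusted p under 0.05 there were 3943 and 3759 genes, 21 and 17 of them heat shock or DnaJ genes. Without ASC replicate 1 the median difference of these genes was +0.4995 kb (all genes +0.3745 kb). Without ASC replicate 2 it was +0.29 kb (all genes +0.2305 kb). Most end breadth calls of single genes given below were lost in either of these fits, where ASC keeps 1 library. Those calls so rest on all 4 libraries together.

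**Figure D1:**
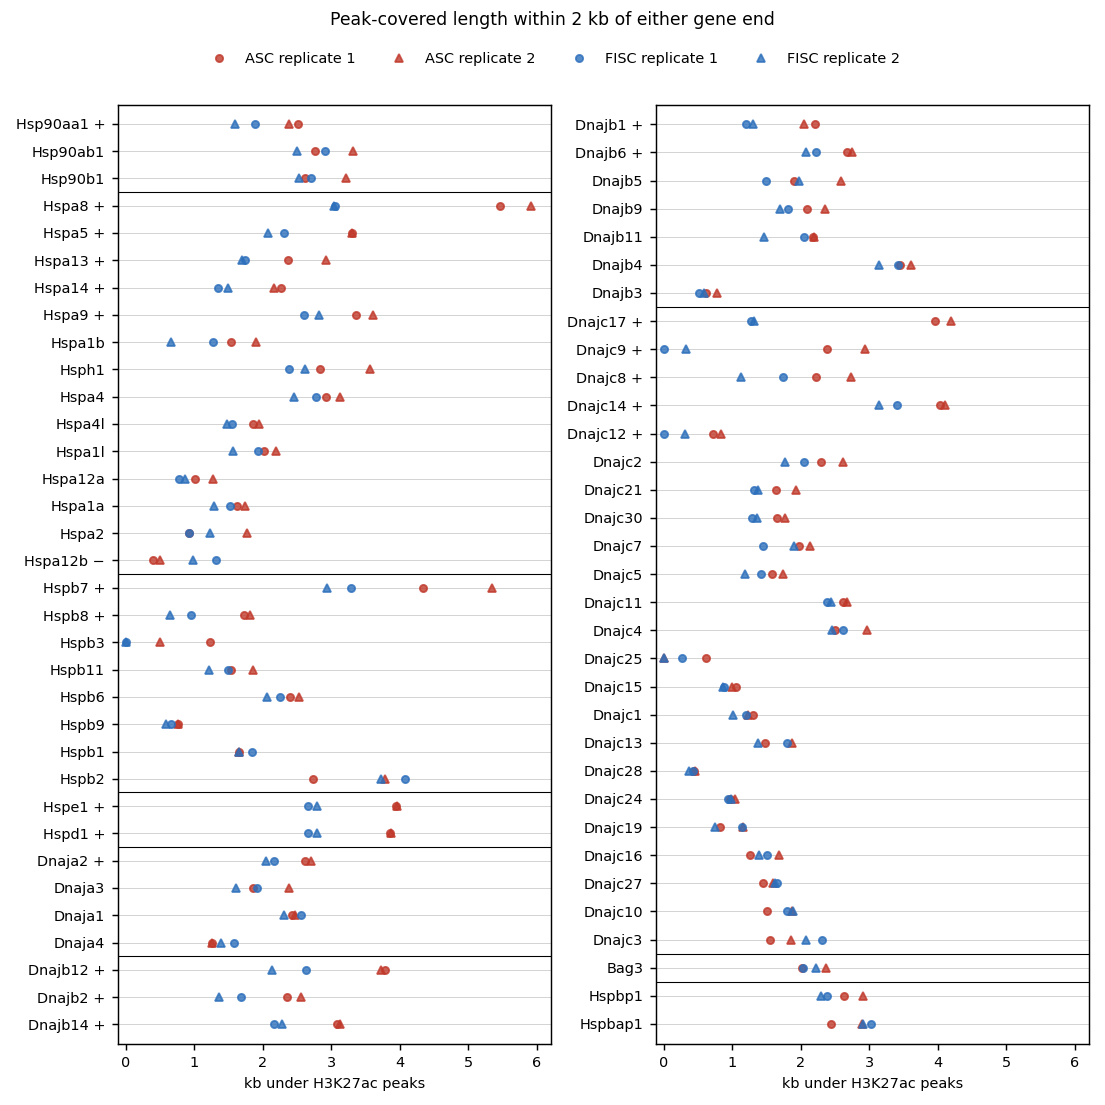
Kb under H3K27ac peaks within 2 kb of either gene end (x axis), 1 row per gene with covered ends in at least 2 libraries, grouped by family. Circles and triangles are replicates 1 and 2 of ASC (red) and FISC (blue), and + or − after a symbol marks the 21 genes that rose and the 1 that fell as deposited; after scaling to total covered length 3 rose and 22 fell. Hspa8, Dnajc17 and Dnajc9 show the widest gaps between red and blue, and Bag3, Hspb1 and Dnaja1 show the 4 points side by side.

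Promoter letters were matched to 61 of the 75 genes, from RefSeq windows of 250 bases before to 50 bases after a start site (build GRCm38.p6, which is mm10). The genes not matched are Dnajc5, Dnajc5b, Dnajc11, Dnajc2, Dnajc30, Hspa8, Hspb2, Dnajc12, Hsp90aa1, Dnajc22, Hspa13, Hsp90ab1, Hspa9 and Dnajc18. A heat shock element of 3 units (GAA, TTC and GAA with any 2 bases between each, or TTC, GAA and TTC spaced likewise, which is the same motif on the opposite strand, so matches can overlap) was found at 4 of the 61 (6.56%) and at 104 of 17492 genes with such windows (0.595%). The 4 are Hspd1 and Hspe1, which share 1 site between their starts, Dnajb6, and Hsph1. They are shown because this is the element that HSF1 binds, with the element in capitals, 5′ to 3′ on the gene's strand.
Hspe1, chr1:55088053-55088082, plus strand, 95 to 66 bases before the start: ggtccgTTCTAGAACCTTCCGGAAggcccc
Dnajb6, chr5:29735798-29735897, plus strand, 100 to 1 bases before the start: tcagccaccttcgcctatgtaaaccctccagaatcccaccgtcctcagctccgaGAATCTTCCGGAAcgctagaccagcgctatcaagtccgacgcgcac
Hsph1, chr5:149636279-149636308, minus strand, bases 8 to 37 after an inner start: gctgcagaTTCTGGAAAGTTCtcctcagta
Each stretch lay whole under a peak in all 4 libraries, FISC as well as ASC.

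The ER stress response element (CCAAT, any 9 bases, then CCACG, searched on both strands), through which the ER chaperones respond to unfolded protein, was found at 3 of the 61 (4.92%) and at 29 of the 17492 genes (0.166%). It contains the letters CCAAT, which on their own were found at 25 of the 61 (41%) and at 42.3% of all. The 3 encode proteins of the ER: Hspa5 (BiP, its HSP70), Hsp90b1 (GRP94, its HSP90, with 2 matches) and Dnajc3 (p58IPK, a cochaperone of BiP). Their elements are in capitals.
Hspa5, chr2:34771970-34772089, plus strand, 120 to 1 bases before the start: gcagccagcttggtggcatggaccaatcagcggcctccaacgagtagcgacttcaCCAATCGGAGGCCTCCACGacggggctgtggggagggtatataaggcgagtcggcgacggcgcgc
Hsp90b1, chr10:86705445-86705664, minus strand, 220 to 1 bases before the start: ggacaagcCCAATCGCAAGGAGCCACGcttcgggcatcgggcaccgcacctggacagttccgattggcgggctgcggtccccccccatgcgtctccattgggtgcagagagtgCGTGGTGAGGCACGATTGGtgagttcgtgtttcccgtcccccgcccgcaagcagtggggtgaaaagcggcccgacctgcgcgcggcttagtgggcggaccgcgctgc
Dnajc3, chr14:118937812-118937931, plus strand, 120 to 1 bases before the start: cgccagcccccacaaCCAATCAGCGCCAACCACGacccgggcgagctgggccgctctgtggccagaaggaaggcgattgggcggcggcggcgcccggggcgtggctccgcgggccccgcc
The Hspa5 stretch was under a peak over all 120 bases in both ASC libraries, over 21 bases in FISC replicate 1 and over 0 in FISC replicate 2. The Hsp90b1 stretch was covered over 220, 220, 220 and 126 of its 220 bases, and that of Dnajc3 over all 120 in each library. Of these 3, Hspa5 alone had its stretch uncovered, in part or whole, in both FISC libraries. TATAAA was found at 4 of the 61 (6.56%), which are Dnajc19, Dnajc24, Hspb3 and Hspb6, and at 14.8% of all. A match is a description of letters, not of binding.

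Round the start sites the peaks, as deposited, reached further into the genes in ASC. The start base itself was under a peak at 83.6 and 85.2% of the 61 genes in ASC and at 77 and 73.8% in FISC. At 1.25 kb inside the gene the shares were 32.8 and 42.6% in ASC and 18 and 16.4% in FISC. All 17492 genes had the same order at lower levels, with 16.3 and 19.7% against 11.1 and 11.3% at 1.25 kb. The whole 300-base promoter window was under peaks at 43 and 47 of the 61 in ASC and at 38 and 32 in FISC. At 5 genes, Bag3, Dnajb1, Dnajc9, Hspa1b and Hspa5, it was covered whole in both ASC libraries and in neither FISC library (8.2%, where 6.1% of all genes did so), and at 0 of the 61 the reverse held (all genes 0.492%). The share lies near that of all genes.

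**Figure D2:**
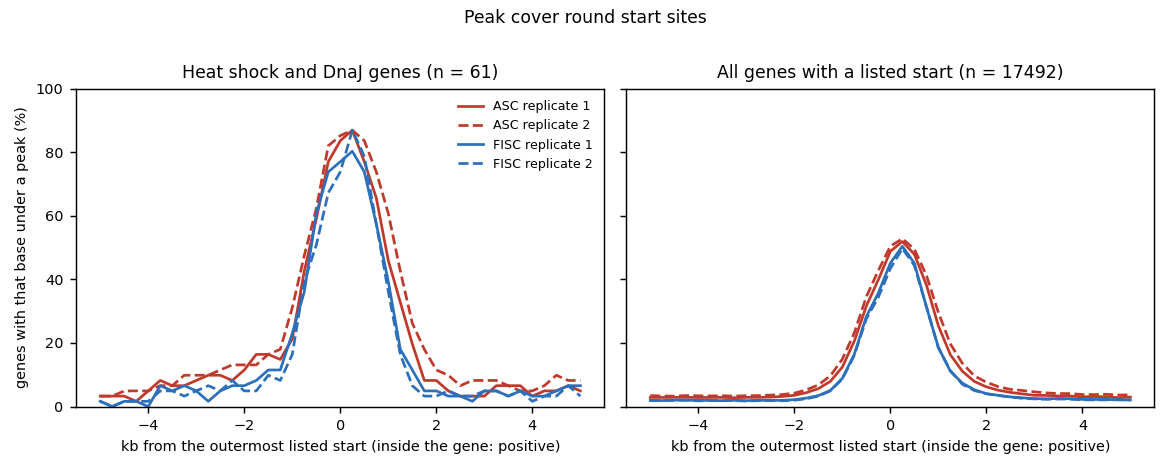
Share of genes with the base under a peak (y axis, %) against the distance from the outermost listed start in kb (x axis, positive inside the gene), for the 61 heat shock and DnaJ genes with a listed start and for 17492 genes. Red lines are ASC and blue lines FISC, solid for replicate 1 and dashed for replicate 2; no scaling was applied. At 1.25 kb inside the gene the red lines on the left stand at 32.8 and 42.6% and the blue lines at 18 and 16.4%.

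The counts by family below stand against the shares of all genes, 26.5% rising and 3.61% falling as deposited and 9.19% and 36.6% after scaling, and with few genes in a family none is read as particular to it. The HSP90 family has 3 genes here, of which 1 rose and 0 fell in end breadth as deposited, while 0 rose and 2 fell after scaling. Hsp90aa1, the stress-inducible cytosolic HSP90, had 2.52, 2.38, 1.88 and 1.60 kb under peaks at its ends. Both ASC values lay above both FISC values, a difference of +0.707 ± 0.162 kb (SE, limma adjusted p = 0.0323) that turned to −0.212 kb after scaling (limma adjusted p = 0.447). Hsp90ab1, the constitutive cytosolic form, had 2.76, 3.32, 2.91 and 2.50 kb, and its groups overlapped (limma adjusted p = 0.37). Hsp90b1 of the ER had 2.61, 3.22, 2.70 and 2.53 kb, which overlapped as well (limma adjusted p = 0.38). The difference between the inducible and the constitutive form was itself not tested.

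Among the HSP70 and HSP110 genes, 5 of 14 rose and 1 fell in end breadth as deposited (all genes 26.5% and 3.61%), while 0 rose and 2 fell after scaling (all genes 9.19% and 36.6%). Hspa8 encodes HSC70, the constitutive cytosolic HSP70, which also uncoats clathrin vesicles and serves chaperone-mediated autophagy. It had 5.47, 5.92, 3.06 and 3.04 kb under peaks at its ends, so both ASC libraries stood well above both FISC libraries. The difference was +2.65 ± 0.228 kb (SE, limma adjusted p = 0.00371), and it stayed positive after scaling, at +0.762 kb (limma adjusted p = 0.0598), and at equal length, at +0.965 kb (limma adjusted p = 0.0149). Hspa8 is 3.93 kb long. At the end with the lower coordinate the breadth was 4, 3.93, 3.06 and 3.04 kb, and at the other end 1.54, 1.99, 0 and 0 kb, so peaks lay at both ends of the gene in ASC and at one end in FISC.

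Hspa5 encodes BiP, the HSP70 of the ER lumen and sensor of unfolded protein. Its end breadth was 3.30, 3.31, 2.31 and 2.08 kb, with no overlap between the groups and a difference of +1.11 ± 0.155 kb (SE, limma adjusted p = 0.00971). After scaling it was −0.0968 kb (limma adjusted p = 0.743), and at equal length +1.11 kb (limma adjusted p = 0.012). In ASC a single peak of 4.09 and 4.07 kb ran across the start, from 2.79 and 2.76 kb before it. In FISC the cover was in pieces: peaks of 0.987 and 1.01 kb ended 0.172 and 0.219 kb before the start, and the next began 0.021 kb before it in replicate 1 and at the start itself in replicate 2. The uncovered stretch is where the element printed above for Hspa5 lies. The same form was seen at Hspa8, where FISC peaks of 1.60 and 1.71 kb ended 0.339 and 0.298 kb before the lower-coordinate end, and a next peak began 0.024 and 0.058 kb before it, while 1 ASC peak of 4.64 and 4.17 kb bridged that stretch. Counting all peaks at both ends, 2 of 67 genes had at most 1 in either ASC library and at least 2 in each FISC library. At 4 the reverse held (all genes 749 and 587 of 12924). Hspa8, with further ASC peaks at its ends, is outside that count.

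**Figure D3:**
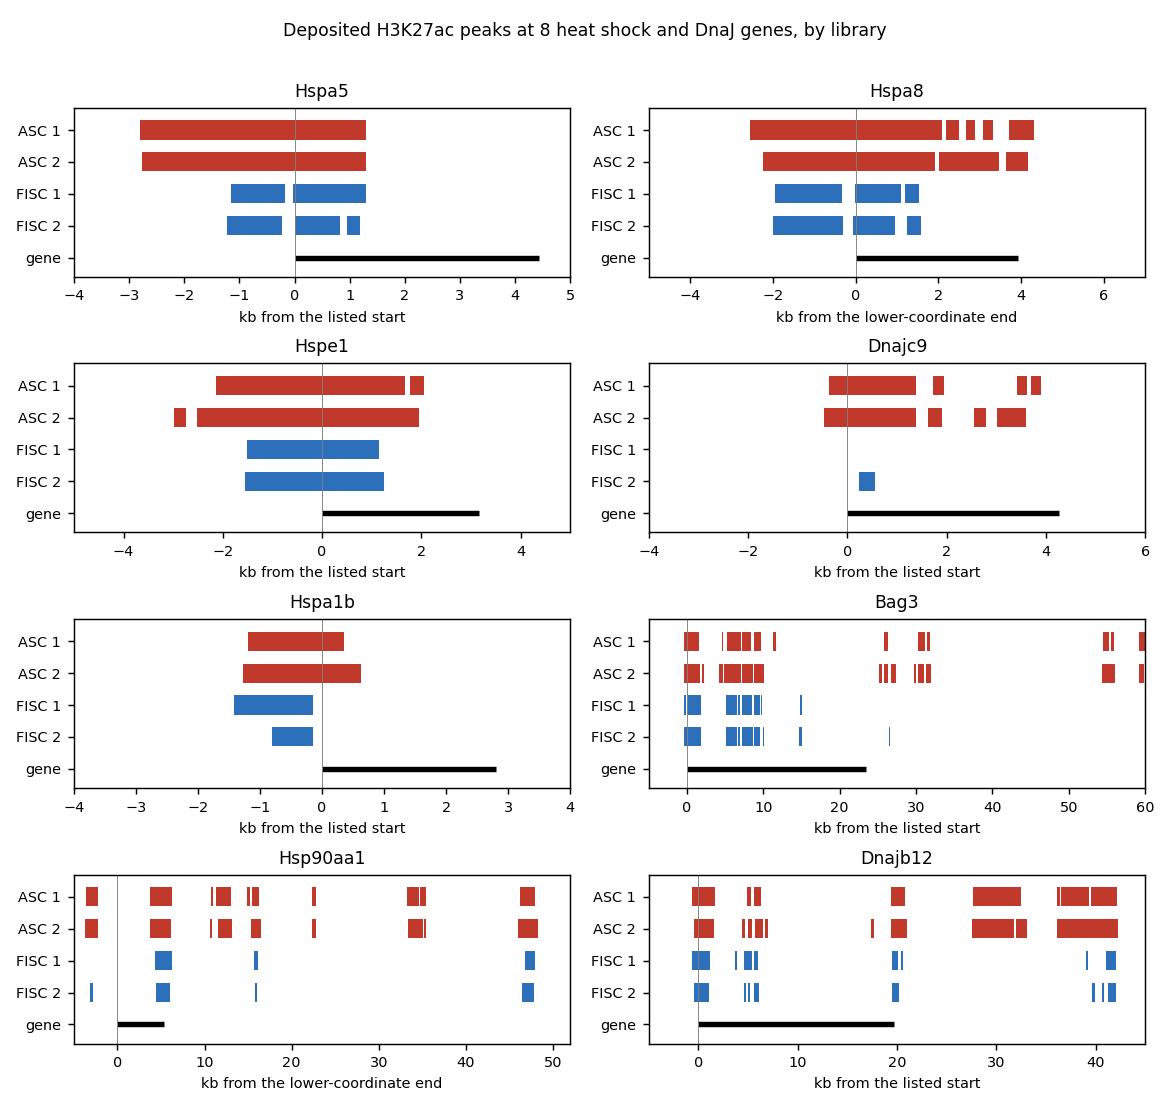
Deposited peaks (bars) of the 4 libraries, ASC in red and FISC in blue, at 8 heat shock and DnaJ genes, with the gene as a black line; the x axis is kb from the listed start or, where none is listed, from the lower-coordinate end. At Hspa5 and Hspa8 a single ASC peak of over 4 kb spans a stretch just before the start or end that lies between 2 FISC peaks. Dnajc9 has a peak across its start in ASC only, and at Bag3, Hsp90aa1 and Dnajb12 further ASC peaks lie away from the gene.

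Hspa9, Hspa13 and Hspa14 rose as well. Hspa9 (mortalin, the HSP70 of the mitochondrial matrix, which takes part in protein import) had 3.36, 3.61, 2.59 and 2.82 kb at its ends, a difference of +0.779 ± 0.179 kb (SE, limma adjusted p = 0.0327), which was −0.614 kb after scaling (limma adjusted p = 0.0699). Hspa13, a microsomal HSP70 relative, had 2.37, 2.92, 1.74 and 1.69 kb (limma adjusted p = 0.0348). Hspa14, which acts at the ribosome, had 2.26, 2.16, 1.34 and 1.48 kb (limma adjusted p = 0.0151). In none of these did the groups overlap. Hspa12b, a distant HSP70 relative known from endothelial cells, fell: it had 0.4, 0.495, 1.32 and 0.985 kb, a difference of −0.704 ± 0.147 kb (SE, limma adjusted p = 0.0258). After scaling it fell by 1.11 kb (limma adjusted p = 0.0047). Most of its peaks were weak, with a highest fold enrichment of 3.61, 3.63, 5.93 and 3.66 and −log10 q of 3.30, 3.84, 10.95 and 3.65. With −log10 q or fold enrichment of at least 5, Hspa12b was not called as a fall. Of 8 endothelial markers, Pecam1, Cdh5, Tie1 and Emcn were at 0 at their ends in every library and 2 were covered in all 4, and the list summed to 1.22 and 1.79 kb in ASC against 2.37 and 2.56 kb in FISC. The 2 covered in all 4, Tek and Cldn5, did not pass at their ends (limma adjusted p = 0.0529 and 0.433). Within 50 kb the same list went the other way, with 37.404 and 45.813 kb in ASC against 26.979 and 27.616 kb in FISC. There 2 of 7 tested markers rose (Cldn5 and Cdh5) and 0 fell. The part of these markers in the fall of Hspa12b was not tested.

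The stress-inducible pair Hspa1a and Hspa1b, the classic heat-induced HSP70 genes, did not pass the test. Their promoters are printed because they are nearly the same, with 247 of the 250 bases before the start identical (98.8%), so that reads of 1 gene may be placed at the other and both values are uncertain. Capitals mark a CCAAT box read on the opposite strand.
Hspa1a, chr17:34972157-34972256, minus strand, 100 to 1 bases before the start: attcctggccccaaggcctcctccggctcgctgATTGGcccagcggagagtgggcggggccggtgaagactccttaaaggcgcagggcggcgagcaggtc
Hspa1b, chr17:34959239-34959338, minus strand, 100 to 1 bases before the start: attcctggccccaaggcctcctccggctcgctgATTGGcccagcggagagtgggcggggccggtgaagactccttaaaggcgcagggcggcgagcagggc
The Hspa1a stretch was under a peak over 100, 100, 100 and 26 bases, and the Hspa1b stretch over 100 and 100 in ASC and over 0 and 0 in FISC. End breadth of Hspa1b was 1.54, 1.91, 1.28 and 0.661 kb, with both ASC values above both FISC values (+0.753 ± 0.256 kb, SE, limma adjusted p = 0.0811). In FISC its peak ended 0.14 kb before the start in both libraries, and in ASC it ran on to 0.35 and 0.627 kb inside the gene. Hspa1a had 1.63, 1.74, 1.53 and 1.29 kb (limma adjusted p = 0.201). At equal length no ASC peak was left at Hspa1a (0 and 0 kb), although the highest deposited fold enrichment there was 7.82 and 9.32 in ASC and 6.99 and 5.69 in FISC. The equal-length value of Hspa1a is therefore not read as a fall. Hspa1a and Hspa1l share bases at their ends and cannot be counted apart.

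The HSP110 genes are nucleotide exchange factors of HSP70. Hsph1 (HSP105), which carries the heat shock element printed above, had 2.84, 3.56, 2.38 and 2.62 kb at its ends, higher in both ASC libraries (+0.701 ± 0.28 kb, SE, limma adjusted p = 0.116). The strongest peaks at the ends of Hspa4 were near the top of every list: 0.152, 0.254, 0.0977 and 0.114% of the peaks in the respective list had a higher deposited fold enrichment. Those of Hsp90aa1 stood at 0.136, 0.283, 0.649 and 1.24%. Ranks within lists of different lengths show no change between conditions. Hspa12a, a relative of Hspa12b, had 1.01, 1.27, 0.78 and 0.861 kb (limma adjusted p = 0.131), and Hspa2, an HSP70 of the testis, had 0.919, 1.77, 0.928 and 1.23 kb (limma adjusted p = 0.536).

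The mitochondrial chaperonin encloses single proteins in a chamber of HSP60 (Hspd1) with HSP10 (Hspe1) as its lid. Its genes lie head to head and their windows share most bases, so they count as 1 observation. Hspe1 had 3.95, 3.96, 2.66 and 2.80 kb at its ends and Hspd1 had 3.85, 3.87, 2.66 and 2.80 kb. The ASC replicates were nearly the same and stood above both FISC values. Hspe1 rose by 1.23 ± 0.156 kb (SE, limma adjusted p = 0.00793) and Hspd1 by 1.13 ± 0.155 kb (SE, limma adjusted p = 0.00918). After scaling the differences were −0.248 and −0.327 kb (limma adjusted p = 0.452 and 0.319), and at equal length both rose again, by 1.08 and 0.988 kb (limma adjusted p = 0.0183 and 0.0224).

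Of the 8 genes grouped as small heat shock proteins by symbol alone, Hspb11 among them, 2 rose and 0 fell in end breadth as deposited. After scaling 1 rose and 3 fell. Small heat shock proteins hold unfolding proteins without ATP. Hspb7 (cvHSP, of heart and skeletal muscle) had 4.34, 5.35, 3.28 and 2.93 kb, a difference of +1.74 ± 0.379 kb (SE, limma adjusted p = 0.0288). It was −0.0321 kb after scaling (limma adjusted p = 0.929) and +0.815 kb at equal length (limma adjusted p = 0.0753). As deposited, the gain lay at its far end, with 3.69, 4, 1.90 and 2.00 kb there against 0.653, 1.35, 1.38 and 0.934 kb round its start. Hspb8, partner of BAG3 in chaperone-assisted autophagy, had 1.73, 1.82, 0.949 and 0.639 kb, higher in both ASC libraries (+0.979 ± 0.152 kb, SE, limma adjusted p = 0.0125). After scaling its difference was +0.439 kb (limma adjusted p = 0.0764), and at equal length no ASC peak was left at its ends. Hspb1 (HSP25), which binds actin and intermediate filaments, had 1.65, 1.65, 1.84 and 1.65 kb and overlapping groups (−0.0925 ± 0.134 kb, SE, limma adjusted p = 0.62), and after scaling it fell by 0.877 kb (limma adjusted p = 0.0103). Hspb3, a muscle form that partners HSPB2, was covered in ASC only, with 1.23 and 0.494 kb against 0 and 0 kb (limma adjusted p = 0.0567). It rose after scaling (limma adjusted p = 0.0371). Its ASC peaks were weak, with a highest fold enrichment of 4.51 and 4.14, and 62.8 and 64.2% of the peaks in those lists were stronger. At equal length no peak was left at its ends in any library, so it was not tested there.

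Of the 4 DNAJA genes, 1 rose and 0 fell as deposited, while 0 rose and 2 fell after scaling. Dnaja2 had 2.62, 2.71, 2.16 and 2.04 kb at its ends (limma adjusted p = 0.04). Dnaja1, the other main cytosolic DNAJA, had 2.42, 2.47, 2.56 and 2.31 kb, with groups that overlapped (limma adjusted p = 0.963). Of 10 DNAJB genes tested, 5 rose and 0 fell as deposited, while 0 rose and 1 fell after scaling. Dnajb1 (HSP40), the inducible partner of HSPA1A and HSPA8, had 2.20, 2.04, 1.195 and 1.299 kb, a difference of +0.874 ± 0.134 kb (SE, limma adjusted p = 0.012). In ASC this was 1 peak across the start, and in both FISC libraries it was 2, with the uncovered stretch running from 0.213 to 0.012 kb before the start in replicate 1 and from 0.228 kb before to 0.039 kb after it in replicate 2. Dnajb12, an ER membrane J protein that serves protein degradation, had 3.79, 3.72, 2.63 and 2.14 kb (+1.375 ± 0.213 kb, SE, limma adjusted p = 0.0124). Dnajb2, Dnajb14 and Dnajb6, which keeps polyglutamine proteins from aggregating, rose by 0.929, 0.883 and 0.568 kb (limma adjusted p = 0.0197, 0.0136 and 0.0413). Dnajb9 (ERdj4), the cochaperone of BiP induced by ER stress, had 2.09, 2.35, 1.82 and 1.70 kb, higher in both ASC libraries (limma adjusted p = 0.0781). Dnajb7, Dnajb8 and Dnajb13 had no peak at their ends in any library.

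Of 23 DNAJC genes tested, 5 rose and 0 fell as deposited, while 2 rose and 9 fell after scaling. Dnajc17, a nuclear J protein linked to splicing, had 3.95, 4.19, 1.27 and 1.31 kb, a difference of +2.78 ± 0.156 kb (SE, limma adjusted p = 0.00196). It rose after scaling by 1.69 kb (limma adjusted p = 0.00274) and at equal length by 1.83 kb (limma adjusted p = 0.00767). The gain lay at the far end of the gene, with 2.43, 2.59, 0 and 0 kb, where the ends of Gchfr and Gm14137 also lie, and the start side had 1.52, 1.60, 1.27 and 1.31 kb. The value at this end belongs to all 3 genes alike. Dnajc9, a histone chaperone that recruits HSP70 to histones H3 and H4, had 2.38, 2.94, 0 and 0.326 kb, a difference of +2.50 ± 0.236 kb (SE, limma adjusted p = 0.00427). It rose after scaling by 1.96 kb (limma adjusted p = 0.00139) and at equal length by 1.64 kb (limma adjusted p = 0.00847). In ASC a peak of 1.75 and 1.86 kb crossed its start, and in FISC there was none in replicate 1 and one of 0.326 kb, inside the gene, in replicate 2. Its promoter is printed as the one of these whose start gained cover from none, and it holds none of the 4 motifs in the stretch shown.
Dnajc9, chr14:20388911-20389010, minus strand, 100 to 1 bases before the start: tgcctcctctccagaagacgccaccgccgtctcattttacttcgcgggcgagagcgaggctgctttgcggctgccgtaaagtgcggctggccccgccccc
All 100 bases were under a peak in both ASC libraries, and 0 in both FISC libraries.

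Dnajc8 (a spliceosome-associated J protein), Dnajc14 and Dnajc12 also rose. Dnajc8 had 2.22, 2.73, 1.74 and 1.12 kb (limma adjusted p = 0.0496), Dnajc14 had 4.02, 4.10, 3.41 and 3.14 kb (limma adjusted p = 0.0328), and Dnajc12, which folds aromatic amino acid hydroxylases, had 0.709, 0.835, 0 and 0.311 kb (limma adjusted p = 0.0297). After scaling Dnajc14 fell by 0.858 kb (limma adjusted p = 0.0425). Dnajc3, with the ER stress element printed above, had 1.55, 1.85, 2.31 and 2.08 kb, lower in both ASC libraries (−0.497 ± 0.174 kb, SE, limma adjusted p = 0.086). After scaling it fell by 1.43 kb (limma adjusted p = 0.00287). Of the 3 genes with that element Hspa5 rose, and Hsp90b1 and Dnajc3 did not pass. Dnajc5g, Dnajc18 and Dnajc22 had no peak at their ends in any library, Dnajc5b had 0.802 kb in ASC replicate 2 only, and Dnajc6, auxilin of neurons, had 0.252 kb in FISC replicate 1 only.

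Bag3, the cochaperone that joins HSP70 to small heat shock proteins and to autophagy, had 2.01, 2.36, 2.03 and 2.22 kb at its ends, so that the groups overlapped (+0.0585 ± 0.18 kb, SE, limma adjusted p = 0.821). After scaling it fell by 0.944 kb (limma adjusted p = 0.0104). Peaks lay round the start in both conditions, but a small gap left the start base uncovered in both FISC libraries, and the ASC peaks closed it. Hspbp1 and Hspbap1 did not pass either, and after scaling both fell.

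Within 50 kb the differences were larger, and 43 of the 75 genes rose as deposited (57.3%, where 49.9% of all genes rose) and 2 fell (2.67%, where 5.52% of all genes fell). Their median difference was +2.00 kb against +1.29 kb over all genes, and it turned to −0.511 kb after scaling, where 16 rose (all genes 22.6%) and 25 fell (all genes 34.8%). At equal length 14 rose (all genes 20%) and 12 fell (all genes 20.5%). The 16 and the 14 were all among the 43. The ASC libraries were both higher than either FISC library at 59 (78.7%, all genes 71%) and both lower at 5 (6.67%, all genes 9.99%). Without ASC replicate 1 or ASC replicate 2, their median difference was +2.61 and +1.59 kb (all genes +1.65 and +0.93 kb). Without FISC replicate 1 or FISC replicate 2, it was +2.02 and +2.08 kb (all genes +1.36 and +1.22 kb). Neighbouring genes share these bases, so a value belongs to the neighbourhood and not to the named gene alone.

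**Figure D4:**
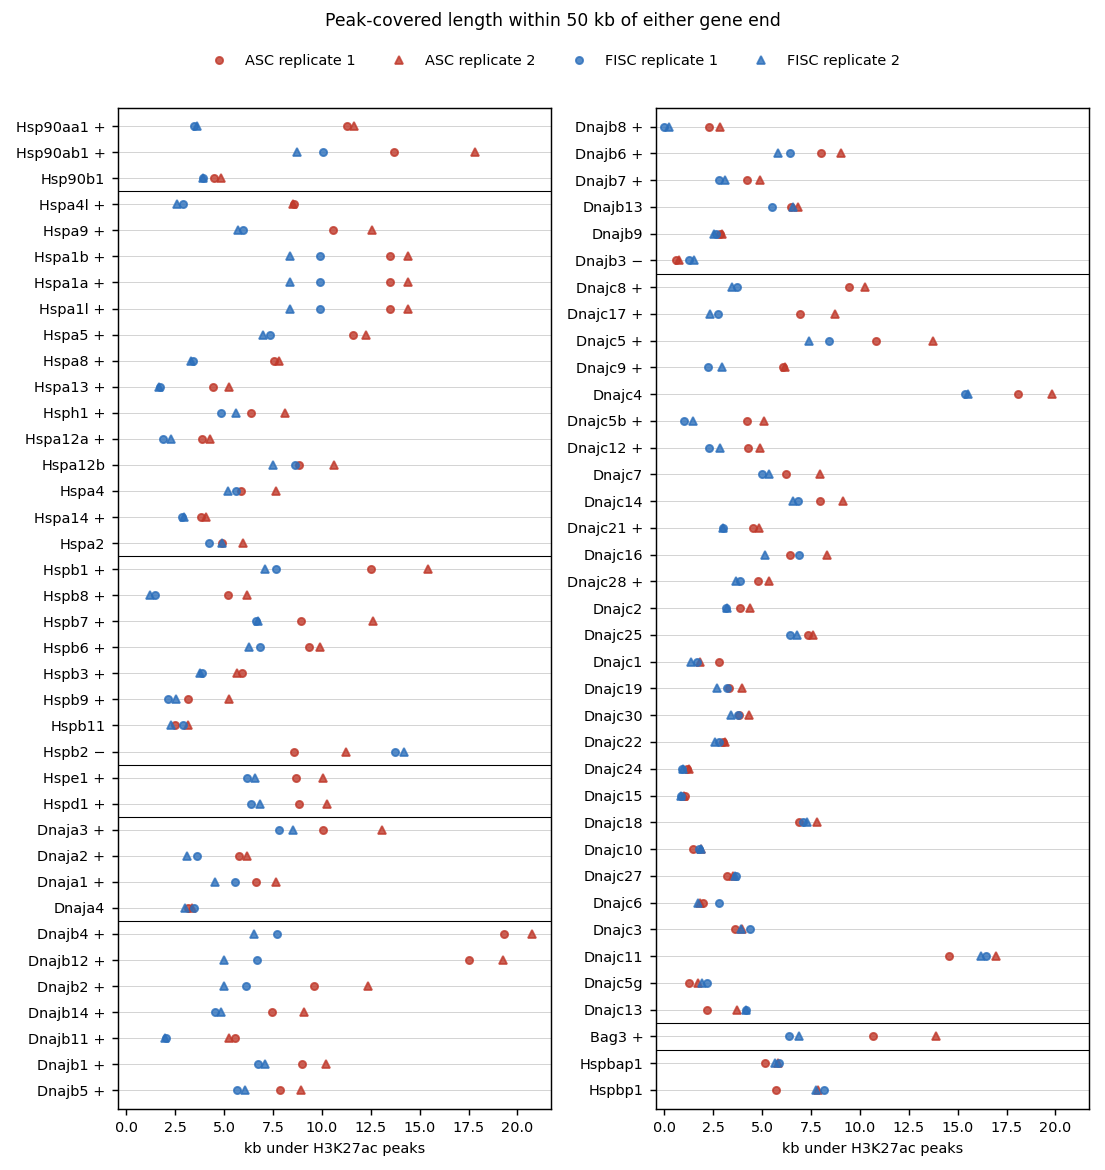
Kb under H3K27ac peaks within 50 kb of either gene end (x axis), 1 row for each of the 75 genes, grouped by family. Circles and triangles are replicates 1 and 2 of ASC (red) and FISC (blue), and + or − after a symbol marks the 43 genes that rose and the 2 that fell as deposited; after scaling to total covered length 16 rose and 25 fell. Dnajb4 and Dnajb12 reach over 17 kb in ASC and under 8 kb in FISC, and at Hspb2 the order is the reverse.

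By family, 11 of 14 HSP70 and HSP110 genes rose within 50 kb and 0 fell as deposited (all genes 49.9% and 5.52%), against 4 and 3 after scaling (all genes 22.6% and 34.8%). Of the 11, Hspa1a, Hspa1b and Hspa1l are a single observation. Of the DNAJB genes 10 of 13 rose and 1 fell, against 5 and 3 after scaling, and of the DNAJC genes 8 of 28 rose and 0 fell, against 4 and 13 after scaling. The genes grouped by symbol as small heat shock proteins had 6 of 8 rising and 1 falling, against 2 and 2 after scaling.

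Dnajb4, a cytosolic J protein, had 19.3, 20.8, 7.73 and 6.54 kb within 50 kb, a difference of +12.9 kb (limma adjusted p = 7.3e-05). It still rose after scaling, by 7.30 kb (limma adjusted p = 0.000613), and at equal length, by 8.34 kb (limma adjusted p = 0.0027). Its ends did not pass as deposited, and after scaling they fell by 1.297 kb (limma adjusted p = 0.00994). A region of 4.64 kb inside Gipc2, at chr3:152153220-152157856, 23.7 kb from Dnajb4, held peaks in both ASC libraries and in neither FISC library.

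Dnajb12 had 17.5, 19.3, 6.67 and 5.01 kb, a difference of +12.6 kb (limma adjusted p = 5.4e-05), which was +7.60 kb after scaling (limma adjusted p = 0.000567). A region of 5.51 kb that overlaps no protein-coding gene, at chr10:59907156-59912667, 7.86 kb beyond the gene, held peaks in both ASC libraries only. It is the block seen near the gene in the plot of deposited peaks.

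Hsp90aa1 had 11.3, 11.6, 3.49 and 3.59 kb, a difference of +7.93 kb (limma adjusted p = 2.8e-05), which was +4.89 kb after scaling (limma adjusted p = 0.000606) and +5.72 kb at equal length (limma adjusted p = 0.00174). Between genes, regions of 1.86 kb at chr12:110702394-110704248, 6.00 kb away, and of 2.24 kb at chr12:110724242-110726482, 27.8 kb away, had peaks in both ASC libraries only. Hsp90ab1 had 13.7, 17.8, 10.1 and 8.73 kb (limma adjusted p = 0.00771), and its difference of +6.36 kb was −0.242 kb at equal length (limma adjusted p = 0.839). Without ASC replicate 2, FISC replicate 1 or FISC replicate 2 the Hsp90ab1 call was lost.

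Hspa4l, an HSP110 gene, rose within 50 kb from 2.93 and 2.59 kb in FISC to 8.55 and 8.53 kb in ASC. Much of this lay in the gene, where a region of 3.43 kb at chr3:40759846-40763275, 15.3 kb from the nearer end, held peaks in both ASC libraries only. Hspa9 had 10.6, 12.6, 5.97 and 5.71 kb (limma adjusted p = 0.00079), Hspa5 had 11.6, 12.2, 7.34 and 6.99 kb, and Hspa8 had 7.55, 7.80, 3.41 and 3.32 kb, all with groups apart. The Hspa5 call within 50 kb was lost without FISC replicate 1 or FISC replicate 2. Hspa1a, Hspa1b and Hspa1l lie together and had identical values of 13.5, 14.4, 9.93 and 8.36 kb (limma adjusted p = 0.00787), a single observation. The call at this locus was lost without ASC replicate 2 or either FISC library.

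At Bag3 and Hspb1 the ends overlapped between conditions as deposited, and fell after scaling, while the 50 kb breadth rose as deposited. Bag3 had 10.7, 13.9, 6.38 and 6.88 kb within 50 kb, a difference of +5.65 kb (limma adjusted p = 0.00283), which was +1.49 kb after scaling (limma adjusted p = 0.0701) and +0.099 kb at equal length (limma adjusted p = 0.903). The call was lost without FISC replicate 1. Hspb1 had 12.5, 15.4, 7.66 and 7.09 kb, a difference of +6.60 kb (limma adjusted p = 0.0016), which was +1.94 kb after scaling (limma adjusted p = 0.0234) and +0.293 kb at equal length (limma adjusted p = 0.686). Without FISC replicate 2 that call was lost. A region of 2.47 kb inside Srrm3, at chr5:135840423-135842893 and 45 kb from Hspb1, had peaks in both ASC libraries only.

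Hspb8 had 5.19, 6.16, 1.46 and 1.20 kb, a difference of +4.34 kb (limma adjusted p = 4.9e-05), which was +2.94 kb after scaling (limma adjusted p = 0.000357) and +0.121 kb at equal length (limma adjusted p = 0.59). Dnajc8 had 9.45, 10.2, 3.72 and 3.49 kb (+6.24 kb, limma adjusted p = 6.8e-05), with an ASC-only region of 2.10 kb between genes at chr4:132587600-132589701. Dnajb8, a J protein of the testis with no peak at its ends, had 2.28, 2.87, 0 and 0.231 kb within 50 kb, and both of its ASC-only regions lie in Gata2, its neighbour. With each of the 4 libraries left out in turn, no 50 kb difference reversed among the core chaperone genes and those with the largest called changes. Several calls were lost in this way, as given for single genes.

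Hspb2, a small heat shock protein of muscle that is the head-to-head neighbour of αB-crystallin (Cryab), fell within 50 kb. It had 8.60, 11.2, 13.7 and 14.2 kb, both ASC values below both FISC values, a difference of −4.03 kb (limma adjusted p = 0.0271), which was lost without FISC replicate 1 or FISC replicate 2. After scaling it fell by 9.84 kb (limma adjusted p = 0.000124) and at equal length it fell by 5.65 kb (limma adjusted p = 0.0129). At the ends of Hspb2 the values were 2.73, 3.78, 4.08 and 3.73 kb, with overlap (limma adjusted p = 0.246). The 6 muscle fibre markers summed to 39.6 and 48.4 kb within 50 kb in ASC against 52.7 and 53.3 kb in FISC, with Ckm and Myh4 at 0 at their ends in every library. Of the 6, 3 fell there and 1 rose. Most of that difference was Tnnt3 (−8.69 kb, limma adjusted p = 0.0216). Myh1 and Myh4 fell by 2.33 and 1.40 kb (limma adjusted p = 0.000659 and 0.00333), while Acta1 rose by 3.10 kb (limma adjusted p = 0.000319). At the gene ends the summed list went the other way, with 3.96 and 5.38 kb in ASC against 2.99 and 3.46 kb in FISC. Of 3 markers tested at their ends, Tnnt3 rose (limma adjusted p = 0.00238) and Mb fell (limma adjusted p = 0.0494). The part of such markers in the fall of Hspb2 was not tested. Dnajb3 fell from 1.26 and 1.51 kb in FISC to 0.614 and 0.774 kb in ASC (limma adjusted p = 0.0118), a call lost without ASC replicate 1 or ASC replicate 2. Its FISC-only region lies in Mroh2a, 49 kb away, and within 20 kb Dnajb3 had the opposite direction (+0.144 kb).

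The merged lists hold 72585 regions, of which 584 lie within 50 kb of these genes. Peaks were present in all 4 libraries at 229 (39.2%, against 26.9% of all regions). In both ASC libraries and no FISC library there were 94 (16.1%, where 19.9% of all regions were), and in both FISC libraries and no ASC library 24 (4.11%, where 7.3% of all regions were). Of the 94 ASC-only regions, 34 lay between genes, 24 in another gene, 12 in the heat shock or DnaJ gene itself and 24 within 2 kb of a gene end. Of the 24 FISC-only regions, 2 lay between genes, 12 in another gene, 8 in the gene itself and 2 within 2 kb of a gene end.

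Other genes of the chaperone system are given from lists, with end breadth as deposited, where 26.5% of all genes rose and 3.61% fell, and after scaling, where 9.19% rose and 36.6% fell. No list is read as particular against those shares. Of 5 heat shock factor genes 3 were tested, and 0 passed in either direction as deposited, while 0 rose and 1 fell after scaling. Hsf1, the master regulator of the heat shock response, had 2.69, 2.53, 2.27 and 2.20 kb at its ends, higher in both ASC libraries. Of 20 HSP90 cochaperone genes 19 were tested, and 4 rose and 0 fell, against 0 and 4 after scaling. The 4 were Unc45a, Cdc37, which brings kinases to HSP90, Ppid and Ahsa1. Unc45a rose from 2.49 ± 0.199 kb in FISC to 4.43 ± 0.765 kb in ASC (SD, n = 2, limma adjusted p = 0.0234). Unc45b, the other UNC45 gene of the list, was at 0 kb at its ends in every library. Of 11 HSP70 partner genes 4 rose and 0 fell, against 0 and 2 after scaling. The 4 were Grpel2 and Grpel1, exchange factors of mitochondrial HSP70, Sil1, that of BiP, and St13. Of 14 genes of the cytosolic chaperonin CCT and prefoldin, which fold actin and tubulin, 13 were tested, 4 rose (Pfdn1, Cct6a, Tcp1 and Cct4) and 0 fell, against 1 (Pfdn1) and 4 after scaling.

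Of 16 genes of ER chaperones and the unfolded protein response, 5 rose (Atf6, Calr, Atf4, Ern1 and Canx) and 0 fell as deposited (all genes 26.5% and 3.61%), against 0 and 6 after scaling (all genes 9.19% and 36.6%). Calr, the calcium-binding lectin chaperone, rose from 1.75 ± 0.0983 kb to 2.99 ± 0.0474 kb (SD, n = 2, limma adjusted p = 0.00592). Of 9 genes of mitochondrial protein quality control, 3 rose (the proteases Lonp1 and Yme1l1, and Clpx) and 0 fell, against 0 and 3 after scaling. Lonp1 rose from 2.49 ± 0.0615 kb to 4.18 ± 0.142 kb (SD, n = 2, limma adjusted p = 0.00443). Of 5 genes of the crystallins and chaperone-assisted autophagy 3 were tested and 0 rose, and after scaling 0 rose and 3 fell. As deposited Cryab fell, with 0.201, 0.137, 0.603 and 0.777 kb (limma adjusted p = 0.0221). Cryab was so lower at its own ends and its neighbour Hspb2 within 50 kb, while the ends of Hspb2 overlapped between conditions. The higher-coordinate end of Hspb2 held 2.73, 3.78, 4 and 3.73 kb, far more than the listed ends of Cryab. The fall at the ends of Cryab is so not read as one at a promoter shared with Hspb2. Neighbours share bases within 50 kb, so the values of Cryab and Hspb2 are not independent.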

How the data were processed

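H3K27ac was mapped by ChIPmentation in 2 ASC and 2 FISC libraries, and 1 deposited narrow peak list per library was used. Reads went through bcl2fastq 2.19, BWA, Picard and MACS2 with build mm10, per the submitters' processing notes. Settings, and any use of the inputs, were not stated in the sources used here. The deposited fold enrichment is a ratio, p and q are deposited as −log10 values, and the deposited score is derived from them by the authors' caller. They entered only as peak cut-offs, to rank peaks, and to describe peaks within a list. Read depth is unknown, and what a library's depth adds to its covered length was not tested.

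Kb under peaks was measured with Python 3.11.15 round RefSeq gene ends (GRCm38.p6) on assembled chromosomes. The fit was limma 3.58.1 in R 4.3.3 (eBayes with trend, linear kb, no scaling), ASC against FISC, for genes with covered bases in 2 or more libraries, with Benjamini-Hochberg adjustment over 12924 genes for end breadth and 17480 for 50 kb breadth. The script was tested on simulated data. Genes with values in every library are 20 core chaperone genes, the 10 largest called rises and falls in end breadth and the 6 in 50 kb breadth. Other genes named are up to 4 of each list by absolute difference. Hsf1, Canx, Hspa4, Hspa13, Hspa14, Hspa4l, Hspb3, Dnaja2, Dnajb2, Dnajb6, Dnajb8, Dnajb14, Dnajc12, Dnajc14, Cdh15 and Unc45b were described after their values were seen. The genes, lists and motifs were chosen with earlier results of these data known. Regions are overlapping peaks of the 4 lists merged.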

Additional observations from a re-analysis of the deposited data

How the results depend on the processing

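Over all alternatives, most values of the named genes kept their direction and their side of the threshold (362 of the end breadth values and 368 of the 50 kb values), 92 and 82 lost and 3 and 5 gained the call, and 31 and 19 reversed. The limits are 2 libraries per condition, unknown depth, and ASC lists that cover more of the genome.

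The number of end breadth rises was 21 as deposited, and the genes were not always the same. It was 13 at equal covered length (all genes 15.8%) and 3 after scaling (all genes 9.19%). It was 9 with no filter on covered libraries (12%, all genes 5.69%) and 6 within 1 kb (9.09%, all genes 15.5%). With each library left out in turn, the median difference ran from +0.29 to +0.4995 kb (all genes +0.2305 to +0.3745 kb). The number of falls, 1 as deposited, was 6 at equal length (all genes 13.1%) and 22 after scaling (all genes 36.6%). It was 0 with −log10 q of at least 5 (all genes 3.06%) and with fold enrichment of at least 5 (all genes 2.39%). It was also 0 with peaks joined within 500 bases (all genes 3.22%), with no filter (all genes 0.763%) and within 1 kb (all genes 1.83%). The number of rises within 50 kb, 43 as deposited, was 14 at equal length, 16 after scaling, 26 with no filter, 28 without bases within 2 kb of any gene end, and 19 to 47 with each library left out. Of all genes, 49.9% rose within 50 kb as deposited, 20% at equal length, 22.6% after scaling and 25.8% with no filter. Without bases near gene ends the 28 were of 65 tested (43.1%), where 48% of all genes rose. With each library left out, the median difference within 50 kb ran from +1.59 to +2.61 kb (all genes +0.93 to +1.65 kb). The number of falls, 2 as deposited, was 12 at equal length (all genes 20.5%) and 25 after scaling (all genes 34.8%). It was 0 with fold enrichment of at least 5 (all genes 3.18%), without trend (all genes 2.86%) and within 100 kb (all genes 5.42%). With no filter it was 1 (1.33%, all genes 2.43%). Fewer samples or more genes tested enter some of these; otherwise the cause was not tested.

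End breadth differences (kb, ASC minus FISC) that reversed after scaling were Bag3 −0.944, Dnaja1 −1.113, Dnajb9 −0.439, Hsp90aa1 −0.212, Hsp90ab1 −0.992, Hsp90b1 −0.9765, Hspa12a −0.124, Hspa1a −0.425, Hspa2 −0.31, Hspa5 −0.0968, Hspa9 −0.614, Hspb7 −0.0321, Hspd1 −0.327, Hspe1 −0.248 and Hsph1 −0.601. At equal length they were Bag3 −0.0535, Hspa12a −0.316, Hspa1a −1.407 and Hspb8 −0.794, the last 2 with no ASC peak left after the reduction. Bag3 was also −0.0535 with −log10 q of at least 5, round the start only and round the richer end only. Hspb7 was −0.157 round the start only, and Dnaja1 −0.048 within 1 kb. With each library left out in turn, Bag3 ranged from −0.1165 to 0.2335, Dnaja1 from −0.117 to 0.139, Hsp90b1 from −0.004 to 0.604, Hspa2 from −0.16 to 0.686 and Hspb1 from −0.1865 to 0.0015. The negative Bag3 values were without ASC replicate 2 (−0.1165) and FISC replicate 1 (−0.036), and those of Dnaja1 without ASC replicate 2 (−0.016) and FISC replicate 2 (−0.117).

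For 50 kb breadth, those that reversed after scaling were Dnaja1 −0.623, Dnajb1 −1.004, Dnajb9 −0.951, Hsp90b1 −1.211, Hspa1a and Hspa1b −0.278, Hspa2 −1.427, Hspd1 −0.668, Hspe1 −0.511 and Hsph1 −0.82. At equal length they were Dnajb1 −0.2625, Dnajb9 −0.002, Hsp90ab1 −0.242 and Hsph1 −0.12. Dnajb3 was 0.144 with fold enrichment of at least 5 and within 20 kb, and 0.0255 within 100 kb. Without bases near gene ends Dnajb9 was −0.154 and Dnajc3 0.1945.

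With the replicate number as a block, 18 rose and 1 fell in end breadth (all genes 23.2% and 3.34%). Within 50 kb 42 rose and 3 fell (all genes 46.9% and 5.43%). The labels do not say that a number pairs samples, and deviations of same-numbered libraries correlated at −0.0231 and −0.115.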
